A study of Equus caballus with 6 samples.

Results

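The genes described here are 60 cell cycle and DNA replication genes, grouped by the part of the cycle in which their products act. They were found on the array by symbol, gene number or full gene name in the probe descriptions, and 1 (AURKA) by a RefSeq accession. Of the 60, 56 were on the array, among 13610 named genes: 8 of 9 for G1 control, 19 of 20 for S phase and 29 of 31 for G2 and mitosis. CCND1, MCM2, TPX2 and CKS2 had no named probe and were not analysed here. The 56 members had 95 probes, with 1 probe for 34 members and several for 22.

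Gene expression was measured in horse joint tissue taken from frozen sections by laser capture microdissection, in which a laser cuts chosen cells out of a section. Adult articular cartilage of the stifle, at 15 years of age, was sampled by depth as a superficial layer (AACS, the outer 10%), a middle layer (AACM, 20 to 30%) and a deep layer (AACD, 50 to 90%). Fetal hindlimbs at gestational day 40 gave the intermediate interzone (II) and the outer interzone (OI), layers of the future joint space, and transient embryonic cartilage (EC), the cartilage model that bone later replaces. Each region had 1 array, the labels do not say how many animals were used, and all adult arrays lay on slide 2 and all fetal arrays on slide 1. Stage and slide therefore cannot be told apart, and no difference below has a replicate check or a p-value. RNA of each region was amplified by a global PCR method before labelling.

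In a dividing cell, cyclins bind and activate cyclin-dependent kinases, which drive the steps of the cycle in order. In G1 the retinoblastoma protein holds back E2F factors until cyclin D kinases release them, and E2F then switches on the genes of DNA synthesis. Genes of mitosis rise later, in G2, so a tissue with few dividing cells has little mRNA of either group. Adult articular chondrocytes are known as largely non-dividing cells, whereas fetal cartilage grows by chondrocyte proliferation and the joint interzone is known for flattened cells that divide little.

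Levels are given as a percentage of each array's reference signal, the 75th percentile over the 1765 probes with signal well above background on every array. A gene was called above background in a region when at least 1 of its probes was flagged there as well above background. Levels belong to a probe, so they are compared between regions and never between genes. In bulk samples such as these, fewer cells of a type and less RNA per cell cannot be told apart.

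The probe sequences on which the account turns are shown here, 5′ to 3′ as in the files, since probes of the same gene did not always read the same. Capitals mark a stretch of at least 15 bases shared with another probe of the same gene. The array's horse genome positions were not used here.
UBE2C, probe A_69_P025557: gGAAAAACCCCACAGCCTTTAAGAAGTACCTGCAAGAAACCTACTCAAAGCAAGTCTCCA
MAD2L1, probe A_69_P089531: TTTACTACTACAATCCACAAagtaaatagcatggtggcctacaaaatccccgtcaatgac
MAD2L1, probe A_69_P089532: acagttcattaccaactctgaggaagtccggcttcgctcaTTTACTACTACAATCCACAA
TYMS, probe A_69_P123216: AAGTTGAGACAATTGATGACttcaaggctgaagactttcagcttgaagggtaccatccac
TYMS, probe A_69_P123217: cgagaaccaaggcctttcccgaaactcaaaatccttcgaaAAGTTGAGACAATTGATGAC
MCM7, probe A_69_P017711: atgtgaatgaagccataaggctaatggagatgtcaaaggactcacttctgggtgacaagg
MCM7, probe A_69_P054608: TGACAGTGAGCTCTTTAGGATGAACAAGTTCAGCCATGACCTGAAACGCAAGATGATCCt
The UBE2C probe is 1 of 5 that overlap almost fully, and the MAD2L1 and TYMS pairs overlap by 20 bases. The MCM7 probes come from different transcript models and share no such stretch.

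Detection differed widely between the arrays. Between 36.9% and 44.6% of 43603 probes were well above background on the fetal arrays, against 26.4% in AACS, 8.4% in AACM and 10.8% in AACD. Of 12 housekeeping genes, 8 were above background in AACS, 3 in AACM and 5 in AACD, against 12 in each fetal region. The regions were checked against marker genes. Of 7 cartilage genes, 5, 4 and 5 were above background in AACS, AACM and AACD, against 6 in II, 6 in OI and 7 in EC. COL2A1 and MATN1, which encode matrix proteins of cartilage, were not above background in any adult region. Of 7 interzone genes, 7 were above background in II and in OI, against 5 in EC. GDF5, a growth factor that marks the joint interzone, had 26.7% in II and 9.61% in OI and was not above background in EC.

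The 56 members were above background mainly in the fetal regions. In AACS 6 of the 56 were above background (10.7%, against 28.9% of all named genes), in AACM 4 (7.14%, against 9.76%) and in AACD 5 (8.93%, against 12.4%). In II 36 members were above background (64.3%, against 37.9% of all genes), in OI 40 (71.4%, against 43.7%) and in EC 51 (91.1%, against 45.8%). The members' share was thus below that of all genes in AACS, near it in AACM and AACD, and above it in the 3 fetal regions.

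Both the S-phase and the mitotic members were above background in more cases in EC than in any other region. Of 19 S-phase members, 3 were above background in AACS, 2 in AACM and 4 in AACD, against 12 in II, 12 in OI and 15 in EC. Of 29 mitotic members, 2 were above background in AACS, 1 in AACM and 1 in AACD, against 18 in II, 23 in OI and 28 in EC. Of 8 members of G1 control, 1, 1 and 0 were above background in AACS, AACM and AACD, against 6 in II, 5 in OI and 8 in EC. OI had more mitotic members above background than II (79.3% against 62.1%) and an equal number of S-phase members. The share of all named genes was 28.9% in AACS, 9.76% in AACM and 12.4% in AACD, against 37.9% in II, 43.7% in OI and 45.8% in EC. That share too was higher in OI than in II, and highest in EC.

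**Figure D1:**
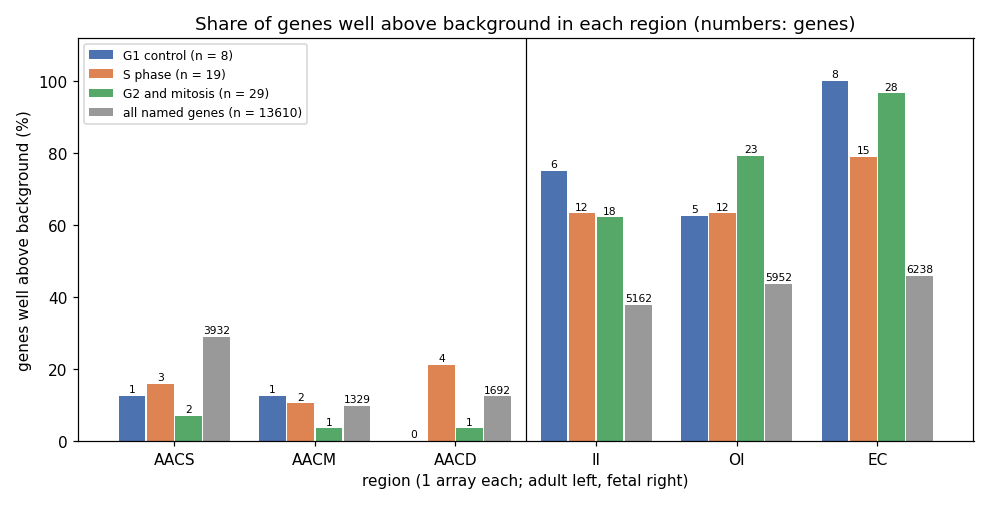
Bars give the percentage of genes well above background in each region (1 array each), for members of G1 control, S phase, and G2 and mitosis and for all named genes. The numbers over the bars count genes. In EC 28 of 29 mitotic members are above background, and in the adult regions no more than 2.

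The fetal regions shared most of the members above background. All 3 fetal regions had 33 members above background (58.9%, against 28.9% of all genes): 5 of G1 control, 10 of S phase and 18 of G2 and mitosis. Another 10 members were above background in EC alone of the fetal regions (17.9%, against 7.07%). They were CDK6, a cyclin D kinase, E2F1, the transcription factor that starts S phase, CDC6, which loads the replicative helicase, TK1, a thymidine kinase, GINS2, a helicase subunit, CDC25C, the phosphatase that activates CDK1, CENPA and CENPF, centromere proteins, KIF11, the spindle motor, and BIRC5, a subunit of the chromosomal passenger complex. In OI and EC but not II, 6 members were above background (10.7%, against 6.72% of all genes): MCM5, TOP2A, AURKB, PLK1, BUB1 and NUF2, of which 5 act in mitosis. CDKN1B, a kinase inhibitor, and CCNE2, a cyclin of the G1 to S step, were above background in II and EC but not OI, as 3.13% of all genes were. CCNE1, the other cyclin E, was above background in OI alone (5.22% of all genes) and CDT1, a licensing factor, in II alone (3.01%). No member was above background in II and OI without EC, the pattern of 2.88% of all genes. FEN1, a flap nuclease, GINS1 and CDKN3, a phosphatase, were above background in no fetal region (43.1% of all genes), and FEN1 and CDKN3 in no region at all (37.9%).

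Several of the members seen in EC alone were dim there. The lowest signal well above background corresponded to 0.212% of the reference in EC, and CDC25C had 0.225%, KIF11 0.302%, TK1 0.415% and GINS2 0.419%. These 4 values lay close to the limit of detection. CENPF with 3.82%, CDC6 with 6.44% and CDK6 with 6.58% lay well over it. On the wider detection flag of the scanner software, 24 of 56 members were called in AACS, 18 in AACM and 22 in AACD. Of all genes 55.8%, 40.9% and 41.9% were called. The members' share was below that of all genes in AACS and AACM and near it in AACD.

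**Figure D2:**
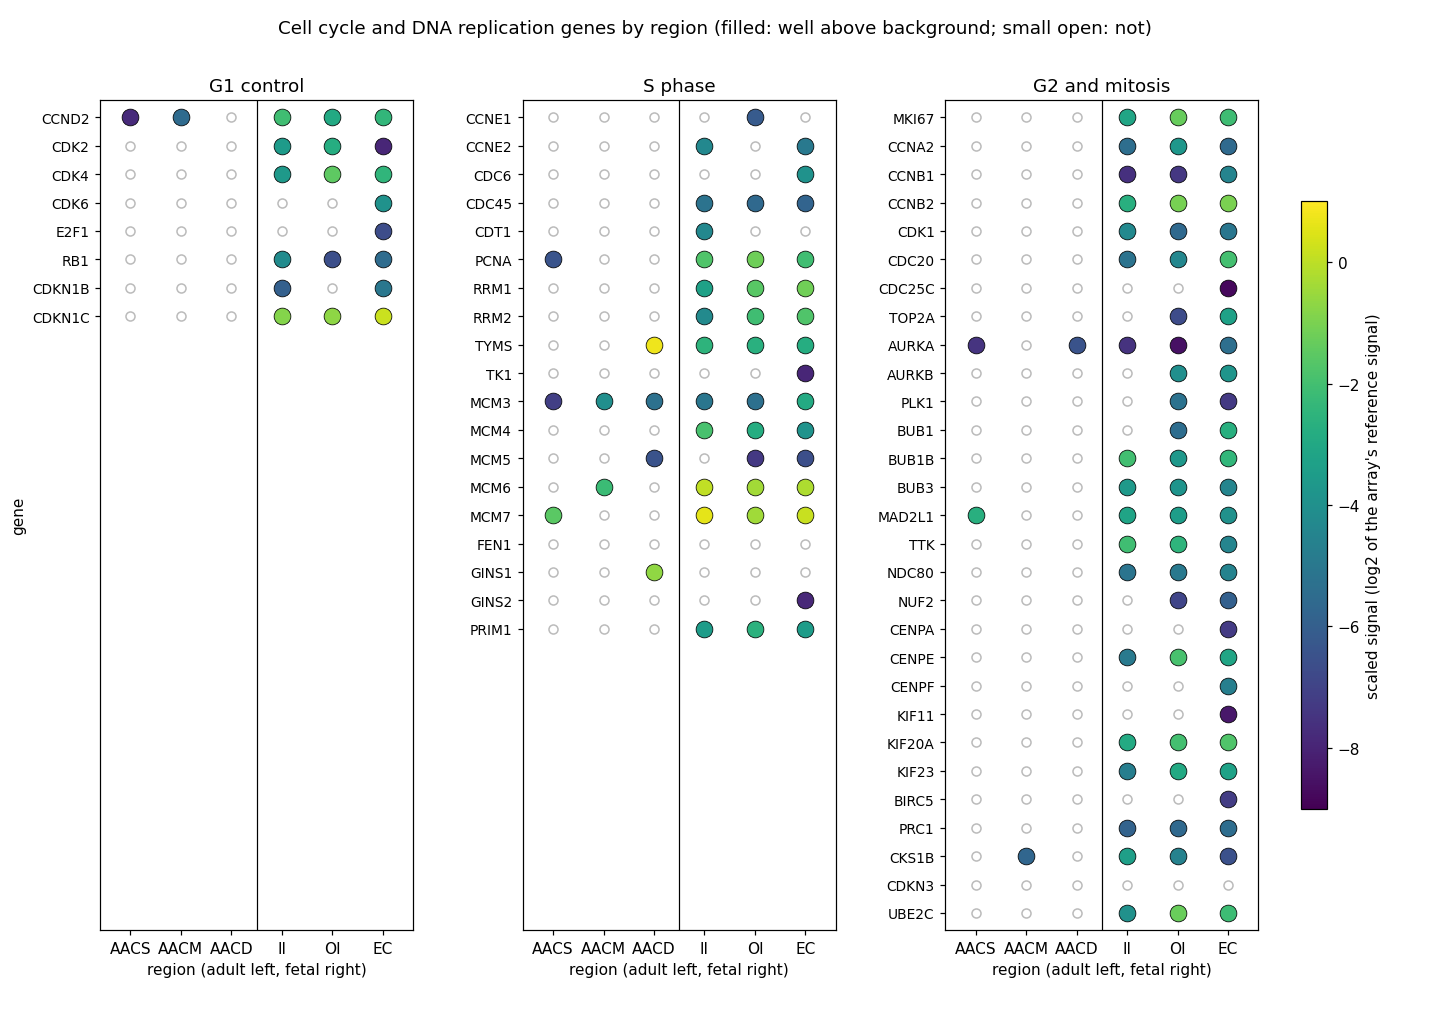
Each of the 56 members is a row and each region a column (adult left, fetal right, 1 array each), in a panel per phase of the cycle. Large filled points are members well above background, coloured by scaled signal of the reported probe (log2 of the share of the reference signal), and small open points are not above background. Most filled points lie in the 3 fetal columns, and the EC column has the fewest open points, 5 of 56.

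Genes of G1 control differed between the fetal regions in both directions. CDK2, the kinase partner of cyclins E and A, had 8.54% of the reference signal in II, 14.4% in OI and 0.412% in EC, and was not above background in any adult region. Both interzone levels were above that of EC, 20.7-fold in II (log2 4.37, spot error 0.26) and 35-fold in OI (log2 5.13, spot error 0.26). Only 1 probe reads CDK2, and its EC signal lay near the limit of detection. CDK4, the main cyclin D kinase, had 8.00% in II, 36.0% in OI and 18.3% in EC, so that II was lowest, 2.28-fold below EC and 4.50-fold below OI. CDK6, with 6.58% in EC, was at least 17.1-fold lower in II and at least 32.3-fold lower in OI. RB1, the retinoblastoma protein, had 5.37% in II, 1.05% in OI and 2.22% in EC, and stood highest in II. A probe of RB1 left out as a fragment after values were seen, A_69_P002011, gave another order, with 1.16% in II, 4.65% in OI and no signal above background in EC. CCND2, a cyclin D, had 24.0% in II, 12.8% in OI and 19.0% in EC, within 2-fold of each other.

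The kinase inhibitors CDKN1C and CDKN1B had their highest fetal levels in EC. CDKN1C, known as p57 and found in cells leaving the cycle, had 55% in II, 62.2% in OI and 116.0% in EC, 2.11-fold lower in II than in EC and 1.86-fold lower in OI. CDKN1B, known as p27, had 1.59% in II and 3.09% in EC and was not above background in OI. The bound for OI was at least 15.2-fold below EC. E2F1 had 0.984% in EC alone, at least 2.55-fold above II and 4.82-fold above OI.

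Of the genes of nucleotide supply, RRM1 and RRM2, the large and small subunits of ribonucleotide reductase, which makes the DNA building blocks, were lower in II than in the other fetal regions. RRM1 had 10.2% in II, 32.8% in OI and 45.0% in EC, and RRM2 had 5.25% in II, 23.9% in OI and 29.7% in EC. Against EC, RRM1 was 4.40-fold and RRM2 5.67-fold lower in II, and against OI they were 3.21-fold and 4.56-fold lower. OI and EC were within 2-fold of each other for both genes. TYMS, thymidylate synthase, had 17.0% in II, 16.1% in OI and 14.2% in EC by its reported probe, within 2-fold of each other, while its probe A_69_P123217 was lowest in II, with 3.94%, against 12% in OI and 12.4% in EC.

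The subunits of the MCM helicase, the ring that unwinds DNA at the replication fork, went in different directions. MCM3 had 2.98% in II, 2.48% in OI and 13.1% in EC, so that it was 4.40-fold lower in II and 5.28-fold lower in OI than in EC. All 3 of its probes were lower in both interzone regions than in EC. MCM4 had 26.8% in II, 14.4% in OI and 6.96% in EC, 3.85-fold higher in II and 2.08-fold higher in OI. MCM6, with 102.0% in II, 76.8% in OI and 83.8% in EC, was within 2-fold in every fetal pair. MCM5 was dim throughout, with 0.617% in OI and 1.04% in EC and no signal well above background in II.

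Of the other S-phase members, PCNA, PRIM1 and CDC45 were even among the fetal regions by their reported probes. CDC6, CDT1 and the cyclins E were not even. PCNA, the sliding clamp of the replication fork, had 29.8% in II, 43.5% in OI and 23.7% in EC. PRIM1, the primase subunit, had 8.67%, 16.4% and 8.83%, and CDC45, a helicase component, had 2.75%, 2.03% and 1.76% in II, OI and EC. By their reported probes none of these 3 genes differed by 2-fold between fetal regions. The other PCNA probe was higher in OI than in EC by a log2 difference of 1.14. The other CDC45 probe, left out in II as an outlier spot, had 3.99% in OI and 0.937% in EC. CDC6 had 6.44% in EC and was at least 16.7-fold lower in II and 31.6-fold lower in OI. CDT1, its partner in loading the helicase, showed the opposite, with 4.92% in II, at least 23.2-fold above EC and 24.1-fold above OI. CCNE2 had 4.96% in II and 3.23% in EC, at least 24.3-fold and 15.9-fold above OI, where CCNE1 had 1.39%.

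MCM7 depended on which probe was read. Probe A_69_P017711 had 151.0% in II, 75.2% in OI and 111.0% in EC. The other 5 probes, which tile another transcript model and overlap almost fully, had between 1.27% and 2.46% in OI and between 2.46% and 5.13% in EC, and none was above background in II. For MCM7 the reported probe thus put II 2.01-fold above OI, while by the other 5 probes OI was above background and II was not.

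Several mitotic members were lower in both interzone layers than in EC. CDC20, the activator of the anaphase-promoting complex, had 2.74% in II, 4.85% in OI and 25.1% in EC, 9.14-fold lower in II (log2 -3.19, spot error 0.21) and 5.16-fold lower in OI (log2 -2.37). CCNB1, the cyclin of mitotic entry, had 0.508% in II, 0.595% in OI and 4.47% in EC, 7.52-fold lower in OI than in EC. EC was highest for both genes, and II and OI were within 2-fold of each other. AURKA, the kinase of the spindle poles, had 0.533% in II, 0.267% in OI and 2.39% in EC, 4.48-fold lower in II and 8.96-fold lower in OI. The limits of detection were 0.385% in II and 0.204% in OI. Near them lay AURKA in both interzone layers and CCNB1 in II.

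A group of mitotic genes was above background in OI and EC but not in II. AURKB, the kinase of the chromosomal passenger complex, had 6.08% in OI and 7.26% in EC, and was at least 15.8-fold lower in II than in OI and 18.9-fold lower than in EC. BUB1, a kinase of the spindle checkpoint, had 2.26% in OI and 15.3% in EC, and TOP2A, the topoisomerase that untangles chromosomes, had 0.959% in OI and 10.4% in EC. In II, BUB1 was at least 39.8-fold and TOP2A at least 27-fold lower than in EC. OI was itself lower than EC for both, 6.77-fold for BUB1 and 10.8-fold for TOP2A. NUF2, a kinetochore protein, had 0.82% in OI and 1.61% in EC. PLK1, the polo kinase, had 2.64% in OI and 0.637% in EC, 4.15-fold higher in OI, and all 5 PLK1 probes were higher in OI than in EC.

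A further set was lower in II than in OI. MKI67, the proliferation antigen Ki-67, had 11.4% in II, 39.6% in OI and 23.4% in EC. CCNB2, the other cyclin B, had 15.3% in II, 48.7% in OI and 49.2% in EC. UBE2C, the ubiquitin-conjugating enzyme that works with the anaphase-promoting complex, had 6.25% in II, 40.5% in OI and 22.8% in EC. Across the 5 UBE2C probes the ranges were 5.62% to 6.46% in II, 35.5% to 40.5% in OI and 20.3% to 22.8% in EC. These probes overlap almost fully and were read on the same array within each region. Their ranges are thus no replicate check on the differences between regions. CENPE, a kinetochore motor, had 3.27% in II, 26.7% in OI and 11.5% in EC. KIF23, a motor of the dividing cell's midzone, had 3.71% in II, 13% in OI and 10.5% in EC. CCNA2, the cyclin of S phase and G2, had 2.35% in II, 7.70% in OI and 2.11% in EC. II was below OI by 8.15-fold for CENPE, 6.49-fold for UBE2C, 3.49-fold for KIF23, 3.28-fold for CCNA2 and 3.18-fold for CCNB2.

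Not all mitotic members were low in II. TTK, the checkpoint kinase also called MPS1, had 23.9% in II, 17.7% in OI and 4.61% in EC, 5.18-fold higher in II and 3.83-fold higher in OI. BUB1B, also known as BUBR1, had 24.3% in II, 7.97% in OI and 18.6% in EC, so that OI was lowest, 2.33-fold below EC, with II 3.05-fold above OI. CKS1B, a small kinase subunit, had 9.54% in II, 4.21% in OI and 1.10% in EC by its reported probe, 8.69-fold higher in II and 3.84-fold higher in OI. Its other 3 probes also stood higher in II and OI than in EC, but 2 of these 3 put OI above II. CDK1, the mitotic kinase, had 5.12% in II, 2.05% in OI and 3.00% in EC, and its 2 probes disagreed on the direction in each fetal pair.

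The remaining mitotic members were within 2-fold of each other in most pairs. KIF20A, a motor of cytokinesis, had 13.2% in II, 25.1% in OI and 29.7% in EC. BUB3, a checkpoint protein, had 8.04%, 7.15% and 4.59%, and MAD2L1, the checkpoint protein MAD2, had 11.3%, 9.02% and 6.23% in II, OI and EC. NDC80, a kinetochore protein, had 2.83%, 3.23% and 4.29%, and PRC1, a bundler of spindle microtubules, had 1.75%, 2.01% and 2.26%. Of these 5 genes KIF20A alone passed 2-fold, 2.25-fold lower in II than in EC. BIRC5 with 0.660% and CENPA with 0.658% were above background in EC alone, and both lay low.

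**Figure D3:**
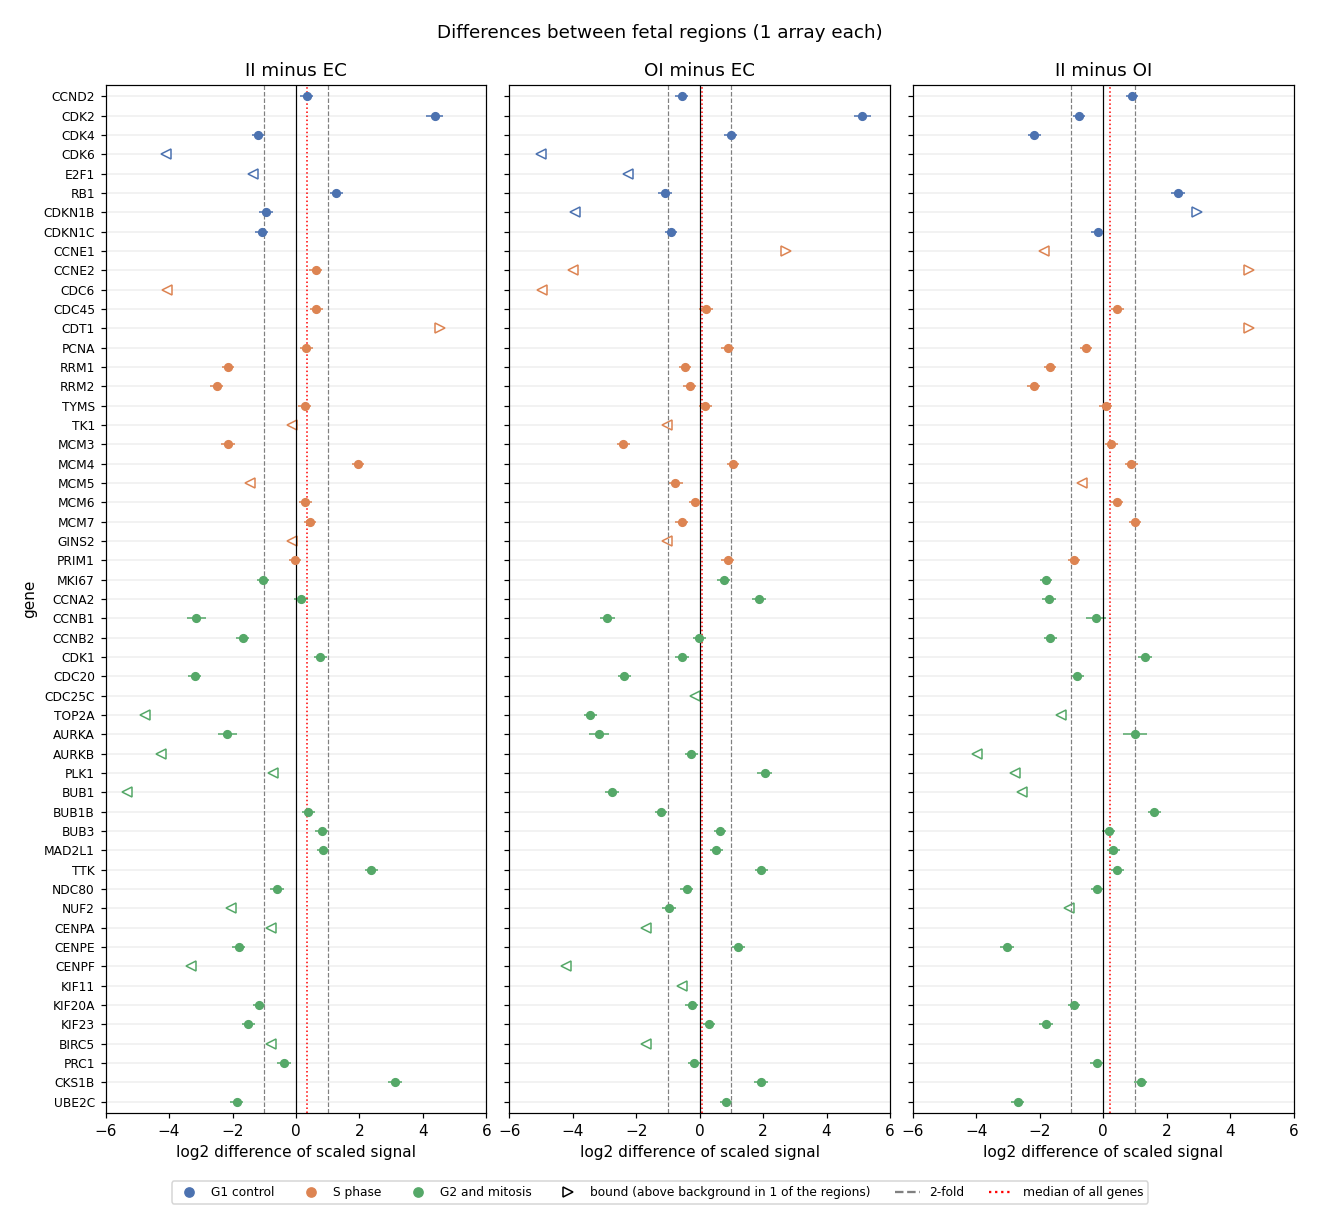
Points give the log2 difference of scaled signal for each member in II minus EC, OI minus EC and II minus OI (1 array each). Bars are the spot error, open triangles are bounds, dashed lines mark 2-fold and the dotted red line is the median of all genes. In II minus EC 14 measured members (filled points) lie at or left of the lower dashed line and 5 at or right of the upper, with bounds not counted.

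The comparison of II with EC asks how the layer at the centre of the future joint differs from the cartilage model beside it. Among 35 members measured in both regions, 14 were at least 2-fold lower in II (40.0%, against 17.7% of all genes measured in both) and 5 at least 2-fold higher (14.3%, against 32.5%). Of 18 mitotic members 9 were lower and 2 higher, with a median of -0.82, and of 11 S-phase members 3 were lower and 1 higher, with a median of 0.29. The median of the 35 was -0.03 on the log2 scale, against 0.36 over the 4304 genes measured in both. Another 16 members were above background in EC but not II (28.6%, against 13.6% of all genes), and 1 in II but not EC (1.79%, against 5.72%). With bounds included, the median of 52 members was -0.75, against 0.19 for all genes. With normexp background correction 6 members were lower and 6 higher, against 216 and 1787 of the 4304 genes. The median of the members was then 0.29, against 0.82 for all genes. The pooled spread between probes of the same gene was 0.55 (log2), and no spread between animals could be measured.

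Genes of the same pathway outside the 60 were taken from lists. Of 21 other mitotic genes measured in II and EC, 6 were at least 2-fold lower in II and 3 higher, with a median of -0.67. Of all genes measured in both, 17.7% were lower and 32.5% higher. Of 50 other mitotic genes on the array, 21 were above background in II (42.0%, against 37.9% of all genes). In EC 40 were above it (80.0%, against 45.8%). CCNF, a cyclin that acts in protein degradation, was lower by a log2 difference of -3.76, and KIF15, a spindle motor, by -2.64, while KIFC1, another spindle motor, was higher by 2.07. Of 24 other replication genes, 6 were lower and 8 higher, with a median of 0.08. POLE3, a DNA polymerase epsilon subunit, differed by -2.42, and PRIM2, the second primase subunit, by 5.13. Of 7 cell cycle transcription factors measured, 3 were lower and 1 higher, among them MYBL2, a factor of mitotic genes, at -3.91 and E2F4, a repressive E2F, at 5.84. Among inhibitors and arrest genes, the antiproliferative TOB1 (-1.98) was lower and BTG2 (1.05), of the same family as TOB1, was higher.

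Markers of other cell types also differed between the fetal regions. Of 8 skeletal muscle markers, 5 were above background in II, 4 in OI and 5 in EC, with a summed level of 1.07, 0.507 and 0.637 times the reference signal. TNNC2 and MYH3 were above background in none of them, and DES only in EC. Of 5 red blood cell markers, 1, 1 and 2 were above background, with a summed level of 0.204, 0.0178 and 0.0472 times the reference, nearly all of it in II from HBB, the beta-globin. HBA and ALAS2 were not above background in any fetal region. Of 7 immune markers 5 were above background in each fetal region, with summed levels of 57.8 times the reference in II, 31.4 in OI and 29.8 in EC, nearly all from PTPRC. By its reported probe PTPRC had 2130% to 5750% of the reference in every region, adult layers included. Only 5 of its 15 probes were measured in both II and EC. TYROBP and CD14 were not above background in any fetal region. Of 5 epithelial markers 0 were above background in II, 2 in OI and 0 in EC, with summed levels of 0.00599, 0.248 and 0.0038 times the reference, most of it in OI from KRT17, a keratin. Their part in the differences above was not tested.

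OI, the layer next to the cartilage, differed from EC in both directions. Among 39 members measured in both regions, 8 were at least 2-fold lower in OI (20.5%, against 20.1% of all genes) and 7 at least 2-fold higher (17.9%, against 25.0%). Of 23 mitotic members 6 were lower and 5 higher, and of 11 S-phase members 1 was lower (MCM3) and 1 higher (MCM4). The median of the 39 was -0.17, against 0.08 for the 4796 genes measured in both, and the share lower was that of all genes. Above background in EC but not OI were 12 members (21.4%, against 10.1% of all genes), and 1, CCNE1, in OI but not EC (1.79%, against 7.89%). Scaled to the 50th percentile of all probes, 13 of the 39 members were higher and 6 lower, against 1639 and 694 of the 4796 genes. Both were near the share of all genes, whose median was 0.46. Of 28 other mitotic genes 6 were lower and 11 higher, with CCNF at -4.46, TACC3, a spindle protein, at -2.84, and SGO2, which protects centromeric cohesion, at 3.30 and SPAG5, a spindle protein, at 3.29. Of 27 other replication genes 6 were lower and 11 higher, among them ORC6 of the origin recognition complex at -1.69, PRIM2 at 4.59 and GINS4, a helicase subunit, at 3.31.

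Between the interzone layers, more mitotic members were lower in II than were higher. Among 33 members measured in both regions, 9 were at least 2-fold lower in II than in OI (27.3%, against 17.7% of all genes) and 6 at least 2-fold higher (18.2%, against 25.7%). Of 18 mitotic members 6 were lower and 4 higher, and of 10 S-phase members 2 were lower (RRM1 and RRM2) and 1 higher (MCM7). The median was -0.19, against 0.21 for the 4268 genes measured in both. Above background in OI but not II were 7 members (12.5%, against 11.8% of all genes), and in II but not OI 3 (5.36%, against 6.05%), both near the share of all genes. Of 18 other mitotic genes 9 were lower in II and 2 higher, with a median of -0.93, among them SPAG5 at -3.88 and NUSAP1, a spindle protein, at -2.72, against CKAP2, a microtubule protein, at 2.75. Of 25 other replication genes 7 were lower and 6 higher, with a median of -0.10, from POLE3 at -3.93 to ORC2 of the origin recognition complex at 3.32. Under normexp correction the median of the members was 0.49, against 0.80 for all genes. Scaled to the 50th percentile, 13 of the 33 members were lower and 3 higher, against 932 and 876 of the 4268 genes.

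The fetal comparisons share arrays, each region serving in 2 of them, so that they are not independent of each other.

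In adult cartilage, 11 members were above background in at least 1 region (19.6%, against 33.5% of all genes), and MCM3 alone in all 3 (1 of 56, against 5.52% of all genes). Above background in all 3 fetal and in no adult region were 24 members (42.9%, against 9.77% of all genes): 4 of G1 control, 5 of S phase and 15 of G2 and mitosis. CDK1 and RB1 count among the 24 only with their fragment probes left out, a choice made after values were seen. All 5 CDK1 fragment probes, and A_69_P003986 of RB1 with 1.77%, were above background in AACS. Among the 33 members above background in all fetal regions, 6 were also above it in AACS (18.2%, against 61.2% of the 3935 genes above background in all fetal regions), 4 in AACM (12.1%, against 22.0%) and 3 in AACD (9.09%, against 28.4%). MKI67, RRM1, RRM2, CCNA2, CCNB1, CCNB2, CDC20, BUB1B, TTK, UBE2C and KIF20A were among those not above background in any adult region. Of 7 endothelial markers 1 was above background in each adult layer, and of 6 bone markers 4 were in AACS, 2 in AACM and 0 in AACD, against 2 in II, 1 in OI and 2 in EC. Their part in the adult values was not tested.

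The limit of detection differed between the arrays. The lowest signal well above background was 0.322% of the reference in AACS, 1.55% in AACM and 0.859% in AACD, against 0.212% in EC. Of the 51 members measured in EC, the EC level of 49 lay over the limit of AACS, 40 over that of AACM and 43 over that of AACD. Of these, 43 were not above background in AACS, 37 in AACM and 39 in AACD. At their EC level, 11 members would thus have gone unseen in AACM and 8 in AACD.

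The superficial layer had 6 members above background, and 5 of them were lower than in EC. CCND2 had 0.441% in AACS and 2.13% in AACM, was not above background in AACD, and had 24.0% in II, 12.8% in OI and 19.0% in EC, so that AACS was 43.0-fold lower than EC. PCNA had 1.19% in AACS, against 23.7% in EC, 19.9-fold lower. AURKA had 0.551% in AACS and 1.14% in AACD, against 0.533% in II, 0.267% in OI and 2.39% in EC: AACS was 4.34-fold below EC and 2.07-fold above OI. The AACS and OI levels of AURKA lay near the limits of detection, 0.322% in AACS and 0.204% in OI. MCM7 had 34.0% in AACS by probe A_69_P017711, 3.27-fold lower than in EC, and none of its other 5 probes was above background in AACS. In these 4 genes AACS was below EC, by 3.27-fold or more.

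MAD2L1 was the exception in the superficial layer. Probe A_69_P089531 had 15.5% in AACS, against 11.3% in II, 9.02% in OI and 6.23% in EC, and probe A_69_P089532 had 8.83% in AACS, against 8.12%, 7.49% and 4.61%. Both probes put AACS above every fetal region and neither was above background in AACM or AACD. The reported probe was 2.48-fold higher in AACS than in EC (log2 1.31), and 1.38-fold and 1.71-fold higher than in II and OI.

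Of the 6 members measured in AACS and EC, 5 fell short of EC by at least 2-fold (83.3%, against 26.0% of the 3020 genes measured in both) and 1 higher (16.7%, against 36.0%), with a median of -3.16, against 0.33. Above background in EC but not AACS were 45 members (80.4%, against 23% of all genes), 12 of S phase and 26 of G2 and mitosis, and 0 the other way (6.19% of all genes). Bounds were at least 360.0-fold lower for CDKN1C, 260.0-fold for MCM6, 153.0-fold for CCNB2, 140.0-fold for RRM1, 92.4-fold for RRM2 and 72.8-fold for MKI67. These bounds set the adult limit of detection against the fetal level. With bounds included the median of 51 members was -3.83, against -0.67 for all genes. Of 50 other mitotic genes on the array, 4 were measured in both regions, 2 of them lower and 1 higher, and 36 were above background in EC alone. Of 42 other replication genes 7 were measured, 3 lower and 1 higher, and 22 were above background in EC alone.

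Set against the interzone regions, AACS again had most members lower or not above background. Against OI, 4 of 6 members were at least 2-fold lower in AACS (66.7%, against 27% of all genes) and 1 higher (16.7%, against 33.9%), with a median of -1.47. Above background in OI but not AACS were 34 members (60.7%, against 21.3%), and 0 the other way (6.61% of all genes). Against II, 4 of 6 were lower (66.7%, against 31.5%) and 0 higher (28.1% of all genes), with a median of -2.10, and 30 were above background in II but not AACS (53.6%, against 17.5%), with 0 the other way (8.59% of all genes). Both medians were above 0, at 0.97 against OI and 0.21 against II, when the arrays were scaled on all probes, a setting that put the median of all genes at 2.72 and 2.21. Against EC that setting gave a median of -0.95 for members and 2.54 for all genes.

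The middle layer held 4 members above background. MCM6 had 21.9% in AACM by 1 probe and 20.7% by the other, against 102.0% and 84.6% in II, 76.8% and 63.3% in OI, and 83.8% and 68.4% in EC. Neither MCM6 probe was above background in AACS or AACD, and both were below every fetal region in AACM. MCM3 had 0.715% in AACS, 6.06% in AACM and 2.54% in AACD, against 2.98% in II, 2.48% in OI and 13.1% in EC, by the reported probe alone. The other 2 MCM3 probes were not above background in any adult region. CKS1B had 1.90% in AACM by 1 of its 4 probes, close to the limit of detection there.

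The deep layer held 5 members, and TYMS and GINS1 stood out in it. TYMS had 167.0% in AACD by its reported probe, against 17.0% in II, 16.1% in OI and 14.2% in EC, 11.8-fold higher than EC. Probe A_69_P123216, printed above, had 16.5% in AACD, against 2.90% in II, 3.92% in OI and 3.89% in EC, while probe A_69_P123217, which shares 20 bases with it, was not above background in AACD and had 3.94%, 12% and 12.4% in the fetal regions. The 3 TYMS probes thus disagreed in AACD, 2 above and 1 not above background. GINS1, a helicase subunit with 1 probe, had 63.9% in AACD and was above background in no other region, at least 235.0-fold higher than EC. MCM5 had 1.14% in AACD, near the limit of detection there of 0.859%, against 1.04% in EC. Before scaling its signal was 10.2 in AACD and 44.5 in EC.

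**Figure D4:**
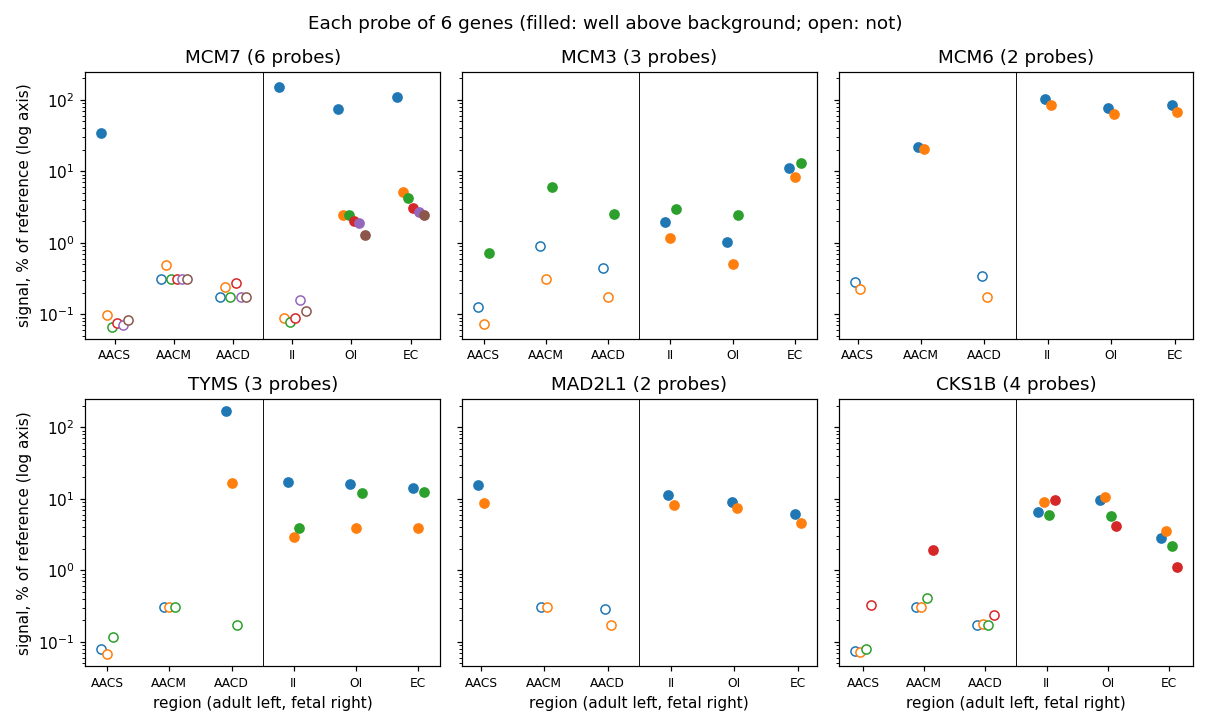
Every probe of 6 members is plotted in each region (adult left, fetal right, 1 array each), with signal as a percentage of the array's reference on a log axis. Filled points were well above background and open points were not. In AACD the TYMS probes lie at 167.0%, 16.5% and an undetected 0.172%, and in AACS 1 of 6 MCM7 probes is filled.

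Set against EC, AACD had 4 members measured in both, 2 lower (50.0%, against 20.7% of all genes) and 1 higher (25.0%, against 52.2%). Above background in EC but not AACD were 47 members (83.9%, against 35.6% of all genes), and 1 in AACD but not EC (1.79%, against 2.45%). The median of the 4 was -0.46, against 1.11 over 1307 genes, and it was 2.66 when the arrays were scaled on all probes.

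Between adult layers few members could be compared. Of 2 measured in AACS and AACM, CCND2 and MCM3, both were lower in AACS (15.7% of all genes were higher and 60.5% lower), by 4.83-fold and 8.47-fold. Before scaling the CCND2 signals were close, 11.3 in AACS and 10.8 in AACM. The lowest signals well above background there were 8.24 and 7.87. The CCND2 difference thus came from the reference signals, 2560 in AACS and 507 in AACM. The MCM3 signals before scaling were 18.3 in AACS, 30.7 in AACM and 22.6 in AACD, where the reference was 891. Most of each MCM3 difference between adult layers thus also came from the reference signals. The members above background in AACS but not AACM were 4 (7.14%, against 21.1% of all genes) and the other way 2 (3.57%, against 2.16%). MCM7 and MAD2L1 were at least 21.9-fold and 9.97-fold higher in AACS, and MCM6 at least 68.0-fold lower. Between AACS and AACD, MCM3 and AURKA were measured and lower in AACS, by 3.55-fold and 2.08-fold (17.6% of all genes were higher and 44.9% lower). Before scaling the AURKA signal was 14.1 in AACS and 10.2 in AACD, so its direction came from the scaling. Its 1.14% in AACD lay near the limit of detection there, 0.859%. AACS alone had 4 members (7.14%, against 19.2%) and AACD alone 3 (5.36%, against 2.91%), with TYMS at least 520.0-fold and GINS1 at least 198.0-fold lower in AACS. Between AACM and AACD, MCM3 was 2.39-fold higher in AACM, and 3 members were above background in AACM alone (5.36%, against 3.46%) and 4 in AACD alone (7.14%, against 6.11%). All these shares rest on 4 or fewer members.

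Across stages, MCM3 was the 1 member measured on all 6 arrays, and its mean over the adult regions was lower than that over the fetal regions by a log2 difference of -1.05, against a median of 0.53 over 572 genes. Above background in every fetal and in no adult region were the 24 members counted above (9.63% of all genes gave a bound by their reported probe in that direction), and no member had the opposite pattern. The regions within a stage are different tissues, so that their spread is no replicate error.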

How the data were processed

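Per the labels' protocols, tissue was sectioned at 10 µm, RNA was amplified by PCR from cDNA, and 250 ng of cDNA was labelled with Cy3. The authors deposited scanner output of 6 single-colour arrays, which per the file headers came from version 10.7.3.1 of Agilent Feature Extraction. The processed signal used is an intensity after background subtraction per the file headers. Detection flags and probe names are other columns of the deposited files. The authors also deposited a table which, set against the scanner values, is a ratio of the processed signal to each array's median. It was used for that check alone.

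Control spots and outlier spots were left out, and spots of a probe were averaged. Signals were divided by each array's 75th percentile, taken over 1765 probes with signal well above background on every array, and log2 was taken. Names came from probe descriptions, matched to RefSeq horse genes (assembly TB-T2T, names alone). Of 43603 probes 9023 were named by symbol, 13532 by gene number, 192 by an older symbol, 177 by gene name, 79 by accession and 760 by a symbol missing from the table. A gene's reported probe was that with the highest mean. Probes described only as a protein fragment, 9 probes of CDK1 and RB1, were left out where other probes named the gene, a choice made after values were seen.

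A gene was measured in a comparison when its reported probe had signal well above background on every array. Where it was on 1 side only, a bound was computed against the lowest signal well above background or the probe's own, whichever was higher. Genes at least 2-fold apart were counted, with no test. The error given is the spot error of the scanner software. It leaves out animals, dissections and amplifications, and 1 array a group limits the precision. All members could be named, and of other lists those with the largest difference in each direction. Some genes of those lists are not reported here. The members and lists were chosen with earlier results of these data known. Alternatives were other scalings, normexp correction with an offset of 50 (limma 3.58.1 in R 4.3.3), other detection rules, a 4-fold threshold and, added after the data were seen, the fragment probes. Scripts used Python 3.11.15, numpy 2.4.6 and pandas 2.3.3 and were tested on simulated data.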

Additional observations from a re-analysis of the deposited data

How the results depend on the processing

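No paired analysis was possible because each group has 1 array. With 1 array a region, limits come from detection, and the cause of each change below was not tested. On the wider detection flag 24 of 56 members were above background in AACS, 18 in AACM and 22 in AACD, in place of 6, 4 and 5. Of all 13610 genes 55.8%, 40.9% and 41.9% were. When every probe of a gene had to be above background, 2 members were so in AACM and 3 in AACD, against 999 and 1334 of all 13610 genes. With the fragment probes of CDK1 and RB1 kept, an alternative chosen after seeing the data, 8 of 56 members were above background in AACS. By the main rule 28.9% of all genes were.

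For II minus EC, 6 members were lower under normexp, as were 216 of 4304 genes, and at a 4-fold threshold 3 were higher and 6 lower. For OI minus EC, 13 were higher at the 50th percentile scaling, as were 1639 of 4796 genes. On the wider flag 13 were lower, and at 4-fold 2 were higher. For II minus OI, 3 were higher both at the 50th percentile, as were 876 of 4268 genes, and relative to the median of all genes. At 4-fold 1 was higher and 4 were lower, and the median was 0.49 under normexp. The counts at 4-fold, on the wider flag and relative to the median are given without a share of all genes.

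The adult medians moved most. With the main detection flag they rested on 6 or fewer members, and that of adult minus fetal on MCM3 alone. Scaled to the 75th percentile of all probes they were -0.95 for AACS minus EC, 0.97 for AACS minus OI and 0.21 for AACS minus II (both reversed). That scaling gave 2.66 for AACD minus EC (reversed) and 1.66 for adult minus fetal (reversed). Quantile normalization gave -2.42 for AACS minus EC, 3.09 for AACD minus EC (reversed), -3.95 for AACS minus AACM, -2.79 for AACS minus AACD and 1.79 for adult minus fetal (reversed). Normexp gave -1.91 for AACS minus EC, -0.60 for AACS minus OI, 1.00 for AACD minus EC (reversed) and -0.03 for adult minus fetal. The wider flag gave -3.91, -3.71 and -4.53 for AACS minus EC, OI and II, -3.49 for AACD minus EC and -2.15 for adult minus fetal. Keeping genes 4 times over the limit of detection gave -0.20, -0.18 and -0.84 for AACS minus EC, OI and II. These rest on MCM7 and MAD2L1 alone, which went in opposite directions. The same rule gave 3.56 for AACD minus EC (reversed), from TYMS alone, whose probes disagreed in AACD. Relative to the median of all genes the values were -1.57 for AACD minus EC, -1.16 for AACS minus AACM and -1.58 for adult minus fetal. At the 50th percentile they were -0.73 for AACS minus AACM, -0.35 for AACS minus AACD, 0.40 for AACM minus AACD and -1.59 for adult minus fetal. The other 152 recomputed values moved by less than the spread between probes of a gene, or stayed close as counts. Medians near 0 could still change sign, as that of II minus EC did at 0.29 under normexp.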
